A study of Homo sapiens with 6 samples.

Results

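The S100 genes described here are 10 members of the family that lie in the S100 gene cluster on the long arm of chromosome 1 (band 1q21): S100A2, S100A4, S100A6, S100A7, S100A8, S100A9, S100A10, S100A11, S100A14 and S100A16. They were taken from the 18404 genes measured. A gene counted as measured when at least 1 probeset of the array carried its symbol and no other, and a gene with several such probesets was to be represented by the one with the highest mean over the 6 arrays. The probesets were thus to be selected on their mean log2 intensity over menthol and vehicle arrays together, a value that is given here only as a description. Each of the 10 genes had exactly 1 such probeset, so the mean decided nothing, and 0 probesets were shared between one of them and another gene. The family was chosen with earlier results of these arrays in view, so how many of its genes changed is given as a description, beside the share of all genes that changed.

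RNA came from PC-3, a long-established human prostate cancer line that grows without androgen. The menthol group (3 arrays) received menthol carried in ethanol, and the vehicle group (3 arrays) received ethanol without menthol. Both groups thus shared ethanol at 0.1% and DMEM medium with 10% FBS, and labelling started from 300 ng of RNA. Neither the menthol dose nor the treatment time is stated in the labels. PC-3 is a single line, and nothing says that the replicates were grown separately, so the p-values cover the scatter of these arrays, which could be purely technical. A signal from whole cultures cannot tell fewer cells expressing a gene from less of its RNA in each cell. In total, 5353 genes differed between menthol and vehicle at an adjusted p under 0.05 in limma (Benjamini-Hochberg adjustment over all genes), and the median log2 fold change over all genes was 0.03. As a check of the cell type, the epithelial genes KRT8, KRT18, KRT19 and EPCAM stood at the 99.0th, 98.6th, 96.8th and 95.9th percentiles of brightness, and KLK3, which encodes prostate-specific antigen and is known to be lost in PC-3, stood at the 32.2nd.

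S100 proteins are small calcium-binding proteins of vertebrates that carry a pair of EF-hand motifs and mostly work as dimers. Binding of calcium exposes a surface that grips target proteins, among them annexins, myosin and several enzymes. Some members are also released from cells and act on receptors such as TLR4 and AGER (RAGE). In epithelia, including that of the prostate, members are used as markers of stress, inflammation and cell state.

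Menthol was accompanied by opposite changes within the cluster. S100A8 and S100A9, which encode the chains of the inflammatory protein calprotectin, fell, S100A8 by 2.63-fold and S100A9 by 1.44-fold. S100A11, S100A16 and S100A14 rose, by 1.34-fold, 1.20-fold and 1.17-fold. The remaining S100A2, S100A4, S100A6, S100A7 and S100A10 did not pass the threshold. Of the 10 genes, 3 were thus higher with menthol, where 14.6% of all genes were, and 2 were lower, where 14.5% of all genes were. Counting both directions gives 5 of 10, against 29.1% of all genes. This share depended on brightness: 12.2% of the 4601 dimmest genes passed, and of the 4601 brightest 17.2% rose and 26.9% fell. The 10 genes had a median at the 64.4th percentile of brightness. A change of at least 1.5-fold as well was seen in 1 of them, S100A8, which fell, against 5.61% of all genes in either direction and 2.62% of all genes that were lower. In 7 of the 10 the menthol and vehicle arrays did not overlap, 4 higher and 3 lower, against 45.3% of all genes (23.5% higher and 21.7% lower). The median log2 fold change of the 10 genes was 0.08, with both increases and decreases among them.

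**Figure D1:**
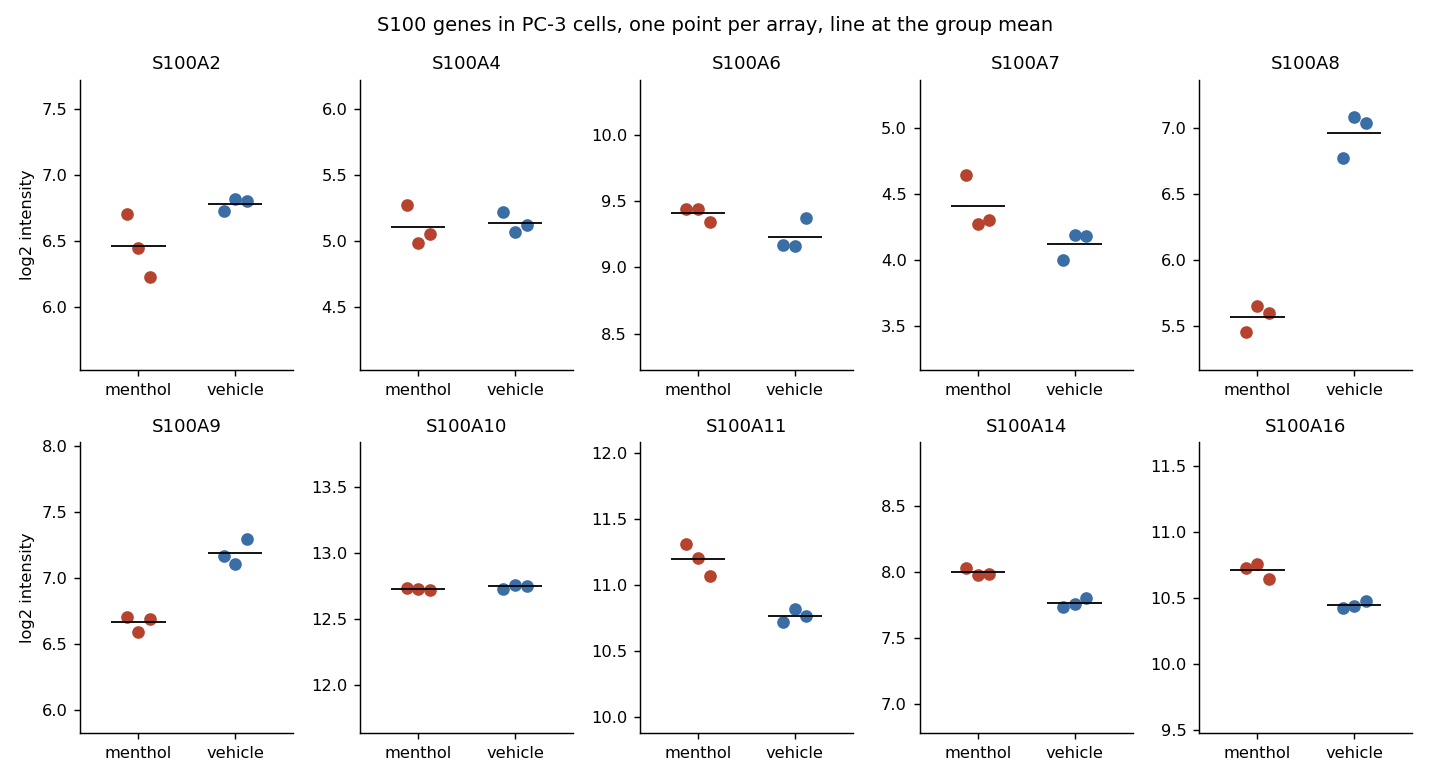
Log2 intensity of the 10 S100 genes in each array, with menthol (red) left of vehicle (blue), 1 point per array and a black line at each group mean. All panels span the same log2 range, so heights can be compared as differences but not as levels between genes. The widest separation is that of S100A8, with menthol arrays between 5.45 and 5.65 and vehicle arrays between 6.77 and 7.08.

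S100A8 encodes the smaller chain of calprotectin, a protein abundant in neutrophils and monocytes that epithelial cells also make under stress. Its log2 intensity was 5.45, 5.65 and 5.60 in the 3 menthol arrays, against 6.77, 7.08 and 7.03 in the 3 vehicle arrays. Every menthol array was lower than every vehicle array, by more than the whole range within either group. S100A8 averaged 5.56 ± 0.10 with menthol and 6.96 ± 0.17 with vehicle (SD, n = 3 each), a log2 fold change of -1.40 ± 0.10 (SE; 95% interval -1.62 to -1.17; limma adjusted p = 9.9e-05). This was the largest change among the S100 genes measured.

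S100A9 encodes the larger chain, the partner of S100A8 in the calprotectin dimer, which binds zinc and manganese as well as calcium and signals through TLR4 and AGER once released. Its log2 intensity was 6.71, 6.59 and 6.70 with menthol, against 7.17, 7.11 and 7.30 with vehicle. The groups were again fully apart, with the menthol arrays close together. The log2 fold change was -0.53 ± 0.07 (SE; 95% interval -0.70 to -0.36; limma adjusted p = 0.0018), so both chains fell, and the intervals of S100A8 and S100A9 did not overlap. The difference between the genes was not tested, and array signals of different probesets need not respond to RNA in the same proportion. Both calls held under all 18 alternative settings, in which S100A8 lay between -1.49 and -1.15 and S100A9 between -0.57 and -0.47 on the log2 scale. Several of these settings could alter the calls but not the fold changes of these genes. They were the filters on dim genes, the other uses of probesets, the trended robust prior, the replicate block and the stricter threshold. The filters kept a gene when the higher of its group means reached the cutoff. S100A8 met the cutoff of 6 only through its vehicle mean (6.96, against 5.56 with menthol), so that setting lends its call no support.

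Because both calprotectin genes are known above all from myeloid cells, myeloid markers were examined in the same arrays. Of 13 measured myeloid markers, 2 rose and 0 fell, or 15.4%, against 29.1% of all genes and 12.2% of the 4601 dimmest genes. The list was mostly dim, with a median at the 20.9th percentile of brightness. PTPRC, the pan-leukocyte marker, stood at the 2.96th percentile of brightness and had a log2 fold change of 0.09 ± 0.08 (SE; limma adjusted p = 0.39). The summed intensity of the list ran from 908 to 948 with menthol and from 804 to 817 with vehicle. CD68 made up most of this difference, at 570 to 607 with menthol and 468 to 513 with vehicle, and the other 12 markers summed to overlapping values of 335 to 353 with menthol and 300.01 to 348 with vehicle. The part of myeloid RNA in the calprotectin changes was not tested. CD68, a lysosomal protein that epithelial lines also express, and AIF1 were the markers that rose, by 0.29 ± 0.07 and 0.69 ± 0.22 on the log2 scale. The call on AIF1 ended in 8 alternatives and that on CD68 in 3, in each case including the omission of vehicle replicate 1 or 2.

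S100A7 (psoriasin), another released family member and one strongly induced in inflamed skin, went the other way without passing the threshold. Its log2 intensity was 4.64, 4.28 and 4.30 with menthol, against 3.997, 4.19 and 4.18 with vehicle. The menthol arrays were all higher, menthol replicate 1 most of all, and the log2 fold change was 0.28 ± 0.11 (SE; limma adjusted p = 0.095). The probeset was dim, at the 18.5th percentile, and the 4601 dimmest genes had a median log2 fold change of 0.10. S100A7A, a near-identical neighbour of S100A7, had a log2 fold change of -0.20 ± 0.09 (SE; limma adjusted p = 0.14). Since the sequences are so alike, the signals of S100A7 and S100A7A may be mixed, and their separate values are uncertain.

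The promoters of S100A8 and S100A9, which fell together, and those of S100A11 and S100A14, which rose and have a single annotated start each, are shown for comparison. The 250 bases before the transcription start were taken from RefSeq on build GRCh38.p14, in which all 10 genes were found, with 14 start sites in total. For S100A8, 1 of 3 annotated starts is shown, the one with a TATA box close before it. Capitals mark matches, on either strand, to any of 7 motifs: the TATA box (TATAAA), AP-1 (TGANTCA), C/EBP (TTGCNNAA), the GC box (GGGCGG), STAT (TTCNNNGAA), grainyhead (AACCNGTT) and NF-kappaB. Each sequence runs 5′ to 3′ on the strand of its gene and ends at the base before the start.
S100A8 (chr1:153391074-153391323, minus strand): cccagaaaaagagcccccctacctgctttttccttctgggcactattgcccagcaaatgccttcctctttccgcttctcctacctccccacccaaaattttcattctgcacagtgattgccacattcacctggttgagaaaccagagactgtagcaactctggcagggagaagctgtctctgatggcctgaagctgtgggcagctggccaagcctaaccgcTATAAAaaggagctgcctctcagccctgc
S100A9 (chr1:153357604-153357853, plus strand): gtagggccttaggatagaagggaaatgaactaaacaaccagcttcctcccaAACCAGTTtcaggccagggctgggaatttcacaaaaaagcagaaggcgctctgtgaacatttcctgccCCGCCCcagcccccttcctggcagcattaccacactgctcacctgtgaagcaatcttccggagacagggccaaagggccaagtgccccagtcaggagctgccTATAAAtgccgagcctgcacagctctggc
S100A11 (chr1:152037005-152037254, minus strand): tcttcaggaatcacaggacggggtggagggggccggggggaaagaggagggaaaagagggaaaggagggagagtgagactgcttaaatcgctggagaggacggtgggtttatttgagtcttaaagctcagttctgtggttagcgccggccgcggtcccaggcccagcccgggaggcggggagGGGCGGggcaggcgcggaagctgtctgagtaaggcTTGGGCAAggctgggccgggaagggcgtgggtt
S100A14 (chr1:153616326-153616575, minus strand): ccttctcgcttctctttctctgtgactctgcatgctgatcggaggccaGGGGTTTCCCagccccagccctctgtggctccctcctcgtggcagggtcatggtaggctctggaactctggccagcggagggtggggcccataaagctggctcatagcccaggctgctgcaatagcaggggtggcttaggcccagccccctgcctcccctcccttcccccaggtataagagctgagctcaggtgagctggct
A TATA box from 29 to 24 bases before the start was found in S100A9. The S100A8 start shown has one at the same distance, but it was picked for that box. Another S100A8 window held TATAAA 126 to 121 bases before its start, and the last held none of the 7 motifs. A TATA box was also found 28 to 23 bases before the start of S100A7 and 31 to 26 bases before that of S100A4, neither of which passed the threshold. The exact letters TATAAA were in none of the annotated windows of the remaining 6 genes. Variants of these letters were not searched, such as TATAAG, which stands near the end of the printed S100A14 sequence. The exact letters TATAAA are held, at any position, by 10.7% of all 35116 promoter windows of this length. In the capitals of S100A9 the other matches are a grainyhead motif and a GC box read on the opposite strand. S100A11 holds a C/EBP and a GC box match, and S100A14 an NF-kappaB match. These motifs occur in 1.49% (grainyhead), 42.6% (GC box), 9.05% (C/EBP) and 5.21% (NF-kappaB) of all windows. No match in the printed sequences overlaps another. The matches describe letters in these windows and do not show that a factor binds there.

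S100A10 and S100A11 lie side by side at one end of the cluster and are both partners of annexins. S100A10 has lost the ability to bind calcium and forms a stable complex with annexin A2 (ANXA2) at the cell membrane, where it helps convert plasminogen to plasmin. Its log2 intensity was 12.73, 12.73 and 12.72 with menthol, against 12.73, 12.76 and 12.75 with vehicle. These values hardly varied in either group, and the log2 fold change was -0.02 ± 0.06 (SE; 95% interval -0.15 to 0.11; limma adjusted p = 0.81). The probeset stood at the 99.9th percentile of brightness, and the sign of this small value turned to 0.04 under quantile and 0.09 under cyclic loess normalization. ANXA2 likewise did not pass, with a log2 fold change of 0.05 ± 0.07 (SE; 95% interval -0.10 to 0.21; limma adjusted p = 0.59).

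S100A11 binds annexin A1 (ANXA1) when calcium is high and acts in membrane repair and growth control of epithelial cells. Its log2 intensity was 11.31, 11.21 and 11.07 with menthol, against 10.72, 10.82 and 10.76 with vehicle. Each menthol array was above each vehicle array, and the menthol arrays were the more spread out. S100A11 rose by 0.43 ± 0.08 (SE; 95% interval 0.25 to 0.61; limma adjusted p = 0.0055), a call that held in all 18 alternatives. As above, several of these alternatives could not alter the size of the change. Among the 4601 brightest genes, to which S100A11 belongs, 17.2% rose and 26.9% fell. ANXA1 rose as well, with log2 intensities of 10.83, 10.79 and 10.89 with menthol, against 10.23, 10.29 and 10.43 with vehicle, a log2 fold change of 0.52 ± 0.07 (SE; limma adjusted p = 0.0018).

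S100A16 and S100A14 are direct neighbours toward the other end of the cluster and are expressed in many epithelia. S100A16 measured 10.72, 10.76 and 10.64 with menthol, against 10.42, 10.44 and 10.48 with vehicle on the log2 scale. S100A14 measured 8.03, 7.98 and 7.99 with menthol, against 7.74, 7.76 and 7.80 with vehicle. In both genes the groups were apart by more than the spread within either. S100A16 rose by 0.26 ± 0.06 (SE; limma adjusted p = 0.016) and S100A14 by 0.23 ± 0.06 (SE; limma adjusted p = 0.021). These calls are close to the threshold: both ended without vehicle replicate 1, vehicle replicate 2 or menthol replicate 2, when the adjusted p lay between 0.050 and 0.077. The changes themselves stayed between 0.24 and 0.36 for S100A16 and between 0.21 and 0.27 for S100A14 over all alternatives. Here too, several alternatives could not alter them.

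S100A6 (calcyclin), which binds CACYBP and is known from proliferating cells, measured 9.44, 9.45 and 9.34 with menthol, against 9.17, 9.16 and 9.37 with vehicle on the log2 scale. Vehicle replicate 3 lay within the menthol range, and the log2 fold change of 0.18 ± 0.08 (SE; limma adjusted p = 0.13) did not pass. It passed under cyclic loess normalization (adjusted p = 0.046) and with a trended robust prior (adjusted p = 0.037). CACYBP had a log2 fold change of -0.17 ± 0.06 (SE; limma adjusted p = 0.091), and passed in 3 alternatives.

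S100A4, linked to cell motility and metastasis through its binding of non-muscle myosin, measured 5.27, 4.98 and 5.05 with menthol, against 5.22, 5.07 and 5.12 with vehicle. The groups overlapped throughout, and the log2 fold change was -0.03 ± 0.09 (SE; 95% interval -0.24 to 0.17; limma adjusted p = 0.81). Its sign turned without vehicle replicate 1 (0.01) or menthol replicate 2 (0.03). The myosin heavy chain gene MYH9 had a log2 fold change of -0.08 ± 0.06 (SE; limma adjusted p = 0.31).

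S100A2, a gene of basal epithelial cells that is often lost in prostate cancer, had the widest spread among the menthol arrays of the 10 genes. Its log2 intensity was 6.71, 6.45 and 6.23 with menthol, against 6.73, 6.82 and 6.81 with vehicle. All menthol arrays were lower, but menthol replicate 1 lay next to the vehicle arrays and menthol replicate 3 well below them, so the SD was 0.24 with menthol and 0.05 with vehicle. The log2 fold change of -0.33 ± 0.12 (SE; limma adjusted p = 0.071) did not pass. Without menthol replicate 1 it was -0.45 and passed (adjusted p = 0.012), and without menthol replicate 3 it was -0.21. It also passed in 5 settings that kept all arrays, namely both filters on dim genes, the added offset, the trended robust prior and array weights, with an adjusted p of 0.022 to 0.040.

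**Figure D2:**
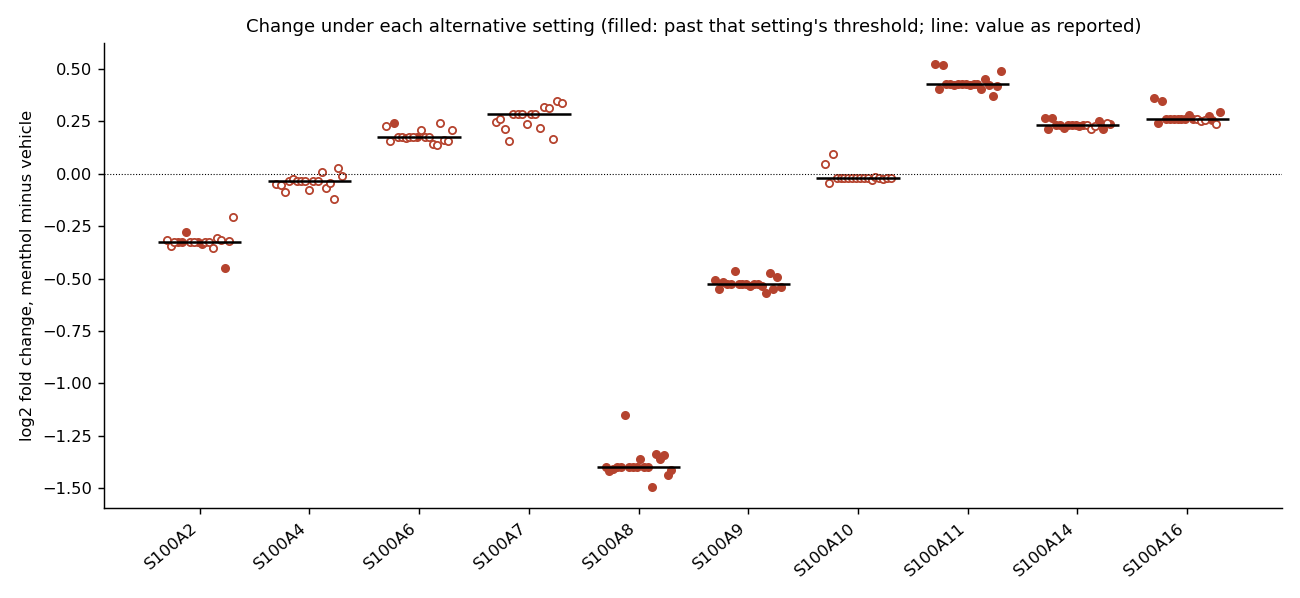
Log2 fold change, menthol minus vehicle, of each of the 10 S100 genes under up to 18 alternative settings. Each point is 1 setting, filled where the gene passed that setting's threshold, and the black line is the value reported. S100A8, S100A9 and S100A11 are filled throughout, S100A14, S100A16, S100A2 and S100A6 in part, and S100A4 and S100A10 cross 0.

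A further 10 S100 genes were set beside the members: 6 lie in the same cluster (S100A1, S100A3, S100A5, S100A7A, S100A12 and S100A13) and 4 on other chromosomes (S100B, S100P, S100G and S100Z). Of these 10 genes 2 rose and 0 fell, or 20%, against 29.1% of all genes and 12.2% of the 4601 dimmest genes. Most of the 10 were dim, with a median at the 17.7th percentile of brightness. S100A13, which takes part in the release of growth factors that lack a signal peptide, lies next to S100A14 and had log2 intensities of 6.45, 6.44 and 6.38 with menthol, against 6.27, 6.07 and 6.23 with vehicle. It rose by 0.23 ± 0.07 (SE; limma adjusted p = 0.047), a size close to those of S100A14 and S100A16, but the call ended in 11 of its 18 alternatives, including the omission of any 1 array. S100B, a glial member, rose by 0.37 ± 0.12 (SE; limma adjusted p = 0.046) at the 5.24th percentile of brightness. Its groups touched at 3.04, and the call ended in 10 alternatives, including the omission of any array other than vehicle replicate 2. S100A3, the neighbour of S100A2, had values of 6.05, 5.68 and 5.77 with menthol, against 6.07, 6.16 and 6.18 with vehicle, with menthol replicate 1 again next to the vehicle arrays. Its log2 fold change was -0.30 ± 0.10 (SE; limma adjusted p = 0.057), and it passed in 8 alternatives. S100A12, the gene between S100A9 and S100A8, was dim, at the 7.89th percentile, with a log2 fold change of -0.25 ± 0.11 (SE; limma adjusted p = 0.15). S100P, a member raised in several carcinomas, stood at 0.01 ± 0.08 (SE; limma adjusted p = 0.94).

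**Figure D3:**
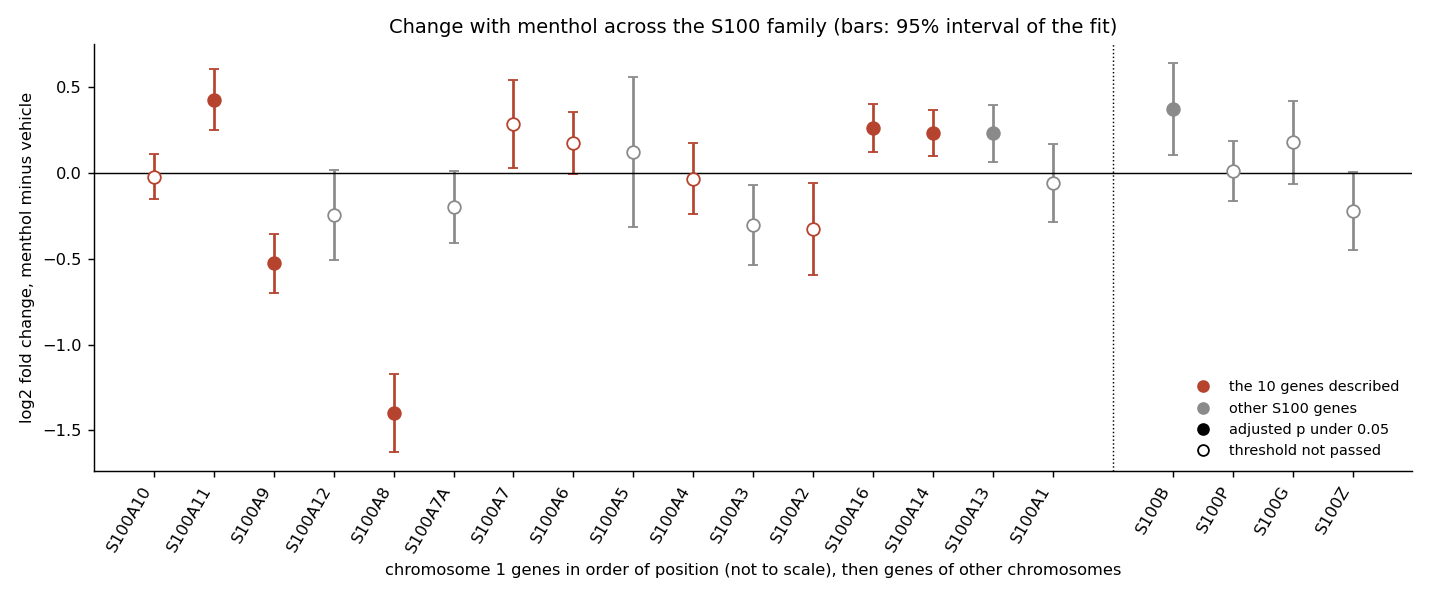
Log2 fold change, menthol minus vehicle, of 20 S100 genes, 16 from chromosome 1 in order of position and then 4 from other chromosomes. S100A7L2 is not drawn. Red points are the 10 genes described, grey points the other family members, filled points passed an adjusted p of 0.05, and bars are the 95% interval of the fit. S100A9 and S100A8 lie lowest, while S100A16, S100A14 and S100A13 stand side by side above 0.

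Along chromosome 1, S100A9, S100A12, S100A8 and S100A7A follow each other, and all had fitted values below 0, though S100A12 and S100A7A did not pass. S100A16, S100A14 and S100A13 also follow each other, and all had values above 0 and passed, within the limits given for each. Between these runs lie S100A7, S100A6 and S100A5, all above 0, and then S100A4, S100A3 and S100A2, all below 0, none of which passed. Neighbours of unlike sign occurred too: S100A10 (-0.02) lies beside S100A11 (0.43), S100A11 beside S100A9 (-0.53), and S100A13 (0.23) beside S100A1 (-0.06). How often neighbours shared a sign was not set against a baseline. The signs of S100A1, S100A4 and S100A5 turned when some single arrays were left out. The 4 measured genes that flank members and are not among these 20 S100 genes did not pass. S100A7L2, an S100A7-like gene next to S100A7 and at the 3.02nd percentile of brightness, had a log2 fold change of 0.18 ± 0.13 (SE; limma adjusted p = 0.31). THEM4, next to S100A10, had a log2 fold change of 0.09 ± 0.08, TCHHL1, next to S100A11, of 0.08 ± 0.18, and PGLYRP4, next to S100A9, of 0.16 ± 0.10 (SE; limma adjusted p = 0.41, 0.77 and 0.26). The epidermal differentiation genes that lie within the same region, which encode proteins of the horny layer such as filaggrin, involucrin and the small proline-rich proteins, were mostly dim. Of 31 measured, 2 rose and 0 fell, or 6.45%, against 29.1% of all genes and 12.2% of the 4601 dimmest genes. SPRR2F rose by 0.39 ± 0.08 (SE; limma adjusted p = 0.0069) and the S100-fused gene TCHH by 0.28 ± 0.08 (SE; limma adjusted p = 0.036). The call on TCHH ended in 8 alternatives, among them the omission of vehicle replicate 1 or 3 or of any menthol array.

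Receptors and binding partners of S100 proteins moved in both directions. Of 18 measured, 3 rose and 3 fell, or 33.3%, against 29.1% of all genes. The list was mostly bright, with a median at the 94.8th percentile of brightness. Among the 4601 brightest genes, 17.2% rose and 26.9% fell. DSP, which anchors keratins at desmosomes, rose by 0.53 ± 0.09 (SE; limma adjusted p = 0.0038). ANXA6 fell by 0.49 ± 0.06 and BSG (basigin), which binds S100A9 at the cell surface, fell by 0.37 ± 0.08 (SE; limma adjusted p = 0.00082 and 0.0096). AGER, the receptor of several released S100 proteins, had log2 intensities of 5.73, 5.50 and 5.49 with menthol, against 5.71, 5.64 and 5.49 with vehicle, and did not pass (log2 fold change -0.04 ± 0.09, SE; limma adjusted p = 0.80). TLR4, the calprotectin receptor, measured 4.95, 5.10 and 4.65 with menthol, against 4.66, 4.47 and 4.80 with vehicle, with overlapping groups (0.26 ± 0.13, SE; limma adjusted p = 0.18). TLR4 passed without menthol replicate 3 (adjusted p = 0.049).

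**Figure D4:**
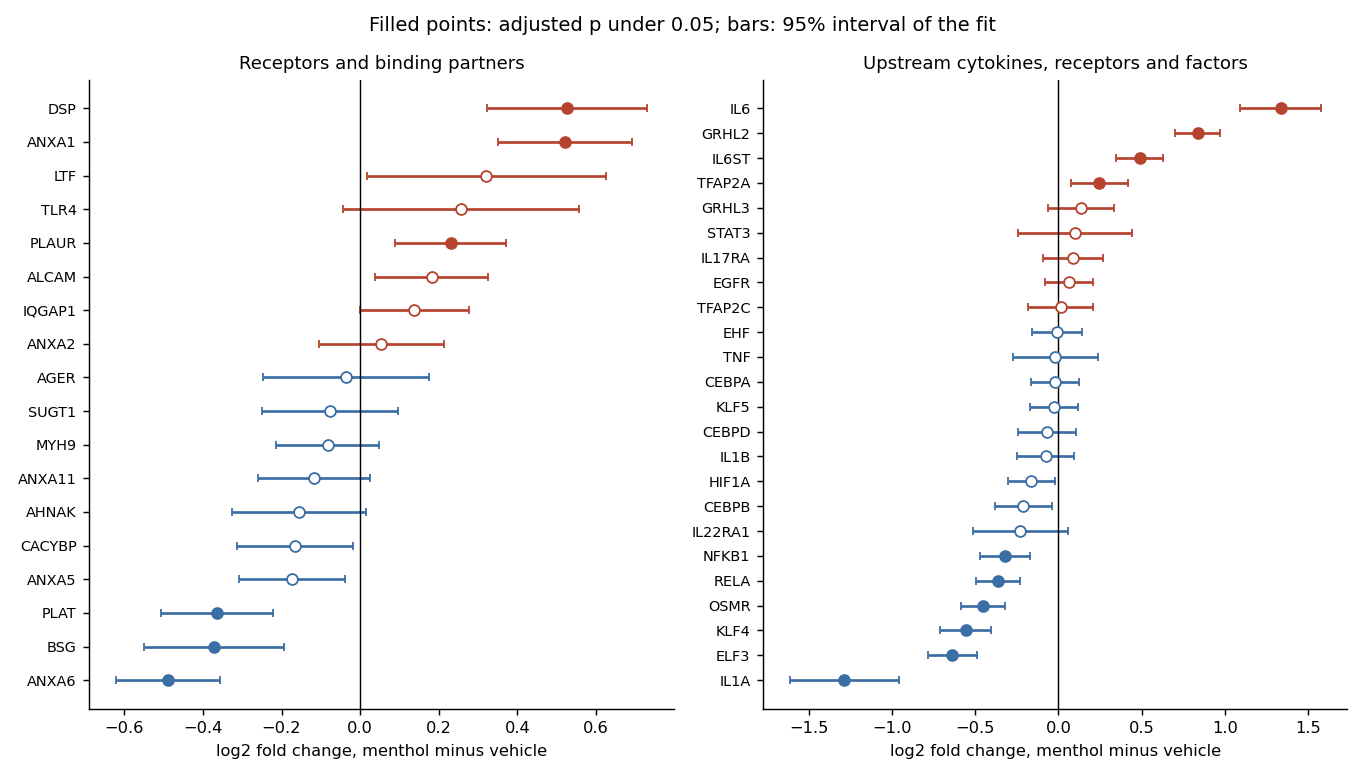
Log2 fold change, menthol minus vehicle, of 18 S100 receptors and binding partners (left) and of 24 upstream cytokines, receptors and transcription factors (right). Red points lie above 0 and blue points below it, filled points passed an adjusted p of 0.05, and bars are the 95% interval of the fit. IL6 and IL1A stand at opposite ends of the right panel, at 1.33 and -1.29.

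Cytokines and transcription factors known to control S100 genes in epithelia also split. Of 24 measured, 4 rose and 6 fell, or 41.7%, against 29.1% of all genes. IL6 rose by 1.33 ± 0.10 and IL1A fell by 1.29 ± 0.14 (SE; limma adjusted p = 0.00016 and 0.00063), while IL1B, the other main agonist of the interleukin-1 receptor, had a log2 fold change of -0.08 ± 0.07 (SE; limma adjusted p = 0.48). The epithelial factor GRHL2 rose by 0.84 ± 0.06 and ELF3, an epithelial factor of the ETS family, fell by 0.64 ± 0.06 (SE; limma adjusted p = 9.5e-05 and 0.00043). The other 6 that passed, named with their values known, were KLF4, OSMR, RELA and NFKB1, which fell, and IL6ST and TFAP2A, which rose. The log2 fold changes were -0.56 ± 0.07 for KLF4, -0.45 ± 0.06 for the cytokine receptor OSMR, and -0.36 ± 0.06 and -0.32 ± 0.06 for the NF-kappaB subunits RELA and NFKB1 (SE; limma adjusted p = 0.00085, 0.0011, 0.0031 and 0.0085). They were 0.49 ± 0.06 for IL6ST, the signalling chain shared by IL6-type receptors, and 0.25 ± 0.07 for TFAP2A (SE; limma adjusted p = 0.0011 and 0.039). The call on TFAP2A ended in 8 alternatives, including the omission of any array other than menthol replicate 3. CEBPB, a known activator of the calprotectin genes, had a log2 fold change of -0.21 ± 0.07 (SE; limma adjusted p = 0.069), and passed in 5 alternatives. The part of these genes in the changes of S100A8 and S100A9 was not tested.

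Other calcium binders of the EF-hand type, outside the S100 family, gave 3 genes that rose and 5 that fell among 24 measured. That is 33.3%, against 29.1% of all genes. Their median lay at the 88.2nd percentile of brightness, and of the 4601 brightest genes 17.2% rose and 26.9% fell. CALB1 (calbindin), a calcium buffer, rose by 0.89 ± 0.06 and CALU (calumenin), a protein of the secretory pathway, rose by 0.47 ± 0.07 (SE; limma adjusted p = 7.8e-05 and 0.0025). The centrin gene CETN3 fell by 0.77 ± 0.16 and EFHD2 fell by 0.63 ± 0.08 (SE; limma adjusted p = 0.0091 and 0.0013).  Of keratinocyte and basal markers, 2 of 8 measured rose and 2 fell, or 50%, against 29.1% of all genes, with KRT15 and KRT10 higher by 1.54 ± 0.09 and 0.45 ± 0.09 and ITGB4 and DSC3 lower at -0.50 ± 0.06 and -0.28 ± 0.08 on the log2 scale (SE). The call on DSC3 ended in 6 alternatives, including the omission of any vehicle array or of menthol replicate 1 or 2. Of 8 measured luminal and epithelial markers, 5 rose and 1 fell, or 75%, against 29.1% of all genes. These markers were bright as well, with a median at the 92.1st percentile, so the shares of the 4601 brightest genes apply here too. KRT19 and KRT18, keratins of simple epithelia, rose by 0.97 ± 0.07 and 0.87 ± 0.06 on the log2 scale (SE; limma adjusted p = 8.7e-05 and 9.8e-05). CDH1 (E-cadherin) rose by 0.78 ± 0.07, while the prostate homeobox gene HOXB13 fell by 0.77 ± 0.06 (SE; limma adjusted p = 0.00023 and 0.00014). These changes were larger in size than those of S100A11, S100A14 and S100A16, and their part in the S100 changes was not tested.

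The genes whose pattern lay nearest to the 2 most changed members were found by the root mean square difference of log2 values over the 6 arrays, each gene centred on its vehicle mean. Nearest to S100A8 were PTGS2, the inducible prostaglandin synthase, at a difference of 0.08, IL33, an alarmin of the interleukin-1 family, at 0.10, and DEPDC1 at 0.10. PTGS2 measured 6.31, 6.55 and 6.30 with menthol, against 7.68, 7.92 and 7.98 with vehicle, and IL33 measured 4.96, 5.11 and 4.96 with menthol, against 6.11, 6.37 and 6.58 with vehicle. DEPDC1 measured 8.92, 8.96 and 9.15 with menthol, against 10.39, 10.52 and 10.55 with vehicle. S100A8, PTGS2 and IL33 had menthol replicate 2 as the highest menthol array, whereas DEPDC1 had menthol replicate 3. These genes were picked for being alike, so their likeness is no finding. Nearest to S100A9 were MRPL38, CDCA4 and AP2A1, at differences of 0.02, 0.04 and 0.04. With 5353 genes changed between the groups, a close match of this kind describes the size of the change and says nothing of shared control.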

How the data were processed

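RNA of 6 PC-3 samples was measured on Affymetrix whole-transcript arrays. The authors deposited intensity values on a linear scale for 32321 probesets, made with RMA per the submitters' processing notes (background correction, quantile normalization and probeset summary). No software version or genome build is stated in the labels. Values ran from 1.57 to 14835, and array medians from 47.4 to 49.1. Precision is limited by having 3 arrays per group.

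Log2 was taken first. Of the probesets, 19158 had 1 gene symbol in the platform annotation, 1388 had several and 11775 had none here. Keeping the probeset with the highest mean gave 18404 genes. The contrast of menthol minus vehicle was fitted by limma (version 3.58.1, lmFit then eBayes, under R 4.3.3; two-sided, with group as the single term), with Benjamini-Hochberg adjustment over all genes and a threshold of 0.05. SE is moderated. The brightness percentile ranks a gene's mean signal among all genes and is not an abundance. With 3 arrays on each side, the smallest p of an exact permutation test is 0.1. The fit was also run on simulated arrays with independent noise and far fewer changed genes than passed here. That run does not vouch for the calls on these arrays.

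The members and the gene lists were chosen with earlier results of these data known. All 10 members are named, as are up to 4 genes per list by size of change past the threshold, ANXA1, ANXA2, AGER and TLR4, flanking genes and nearest patterns; CACYBP, MYH9, PTPRC, KLK3, IL1B, CEBPB, the other called upstream genes, and KRT8 and EPCAM were picked with their values known. Some listed genes were not analysed here. The arrays were fitted as unpaired. For same-numbered arrays, the correlations of the deviations from the group means were 0.01, -0.01 and 0.09. Arrays of different number gave -0.07 to 0.07. Such values cannot show whether the samples were paired. Alternatives were 3 normalizations, 2 filters on dim genes (5 and 6 on the log2 scale), an offset of 16, other uses of probesets, the replicate block, array weights, a trended robust prior (with statmod 1.5.0), a threshold of 0.01 and the omission of each array. Figures were made with matplotlib 3.10.9 in Python 3.11.15.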

Additional observations from a re-analysis of the deposited data

How the results depend on the processing

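S100A8 and S100A9 were lower with menthol in every alternative, and S100A2 joined them as the third in 6 (both filters on dim genes, the offset, the trended robust prior, array weights and without menthol replicate 1), so the count of lower members was 2 to 3. The count of higher members was 1 at the threshold of 0.01, 1 to 3 with an array left out (1 without vehicle replicate 1, vehicle replicate 2 or menthol replicate 2), 4 under cyclic loess and the trended robust prior, where S100A6 joined, and 3 otherwise. Genes past the threshold numbered 2841 at 0.01 and 3839 to 4828 with an array left out. With the replicate block there were 4868, and 3 members were higher and 2 lower; the block ended the calls on S100A13 and AIF1 (adjusted p = 0.071 each) and TFAP2A (0.061), and on no member. Log2 fold changes turned sign only in genes that did not pass. S100A10 was at 0.045 under quantile and 0.093 under cyclic loess normalization. S100P was at -0.0038 under quantile, -0.012 under equal medians and -0.020 under cyclic loess, IL1B at 0.023 under quantile and 0.015 under cyclic loess, and MYH9 at 0.014 under quantile. Under cyclic loess KLK3 was at -0.027 and PTPRC at -0.0067. With an array left out, values ran for S100A1 from -0.12 to 0.029, for S100A4 from -0.12 to 0.026, for S100A5 from -0.021 to 0.32, for S100P from -0.035 to 0.077, for AGER from -0.11 to 0.011, for KLK3 from -0.071 to 0.13 and for TCHHL1 from -0.096 to 0.28. The cause was not tested. Both filters on dim genes dropped S100A7, and the stricter one S100A4 as well, so these genes have fewer alternatives. The stricter filter kept S100A8 only through its vehicle mean. The dim signal of S100A7 limits what can be said of its small change.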
